A study of Mus musculus with 2 samples.

Results

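The respiratory chain members were the rows of the deposited gene table with a protein-coding type and a symbol beginning Nduf with a, b, c, s or v, Uqcr, Cox4 to Cox8 or Atp5, or equal to Sdha, Sdhb, Sdhc, Sdhd, Cyc1 or Cycs. This rule used names only and no measured value, and it took 99 of 55323 rows. The RNA was of TgS1, a line of mouse Schwann cells whose genotype the labels give as TTR V30M tg, that is, carrying a human transthyretin transgene with the V30M change. Cells of the same line and genotype had been kept long term either in DMEM, a basal culture medium, or in SCM, an abbreviation that goes unexplained in the labels. Each medium had 1 library, so no difference below has a replicate check and none has a p-value. Of the 99 rows, 37 encode subunits of complex I, 4 of complex II, 9 of complex III, 19 of complex IV and 18 of complex V, and 1 encodes cytochrome c. The patterns also took in 8 complex I assembly factors (Ndufaf1 to Ndufaf8) and 3 rows that are not chain subunits of their own, namely Cox7a2l, which helps to form supercomplexes, Cox5b-ps, whose name marks a pseudogene copy, and Ndufb11b. Ndufa4 was placed with complex IV, where its protein is now known to sit, and Ndufa4l2, its paralog, beside it.

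The respiratory chain lies in the inner mitochondrial membrane. Complex I takes electrons from NADH and complex II takes them from succinate, both pass them to coenzyme Q, complex III hands them to cytochrome c, and complex IV gives them to oxygen. The protons pumped by complexes I, III and IV drive complex V, the ATP synthase. Most subunits are encoded in the nucleus, a few in mitochondrial DNA, and both sets have to be matched in the assembled enzyme. Schwann cells, the glia of the peripheral nerve, ensheath axons and support them metabolically.

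The DMEM library held 29085791 reads assigned to rows and the SCM library 36666676. The Schwann cell label was checked against 9 markers, of which 8 reached 1 FPKM (fragment counts scaled to gene length and library size) in at least 1 library, with a summed level over the 9 of 4082 FPKM in DMEM and 3915 in SCM. Sox10, a transcription factor of the lineage, was at 126 FPKM in DMEM and at 113 in SCM. Markers of other cell types were near the bottom of the scale, with summed levels in DMEM and SCM of 0.913 and 3.21 FPKM for 5 fibroblast genes (Col1a1 and Lum at 0), 1.42 and 1.51 for 5 macrophage genes (Adgre1 at 0), 0.425 and 0.221 for 5 endothelial genes (Cdh5 and Kdr at 0) and 0.0448 and 0.160 for 5 muscle genes (Ckm and Myod1 at 0). The 5 neuron genes summed to 60.3 and 45.1 FPKM, nearly all from Tubb3, with Rbfox3, Elavl4 and Syt1 at 0. The fibroblast sum was higher in SCM, almost wholly through Col1a2 at 0.742 and 3.15 FPKM, and its part in the values below was not tested.

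Messenger RNA of the nuclear-encoded respiratory chain took nearly the same share of assigned reads in both media. The 99 rows took 0.481% of assigned reads in DMEM (95% exact Clopper-Pearson interval 0.479 to 0.484) and 0.473% in SCM (0.471 to 0.475). Intervals here and below cover counting error only, since PCR copies were not told apart by molecular tags, reads are not independent molecules, and there was no second culture. Of the 99 members, 89 were measured, meaning at least 1 FPKM in 1 or both libraries. Their median log2 ratio of SCM to DMEM, taken as log2((FPKM + 1) / (FPKM + 1)), was -0.03, the same to 2 decimals as the -0.03 of all 12334 rows measured. None of the 89 was 2-fold apart on this scale. Of all measured rows 5.89% were, 3.1% higher and 2.8% lower in SCM, and of measured protein-coding rows 3.92%.

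A finer limit, the higher value at least 25% above the lower on the same scale and called the 25% limit below, was passed by 14 of the 89, or 15.7%, with 6 higher and 8 lower in SCM. Among all measured rows 34.7% passed it, 16.2% higher and 18.5% lower, and among measured protein-coding rows 29.6%, 14.1% higher and 15.4% lower. Counts for single complexes and lists below are to be set beside these shares. The interquartile range of the members' log2 ratios was 0.24, beside 0.43 for all measured rows and 0.38 for protein-coding rows. Members are more abundant than the typical row, with a median of 16.4 FPKM in DMEM beside 7.28 for protein-coding rows, so the same was asked of rows that reached 5 FPKM in each library. There, 9 of 72 members (12.5%) and 1488 of 5850 protein-coding rows (25.4%) passed the 25% limit. By counting error alone, the interval of the plain FPKM ratio excluded 1 for 18 members with higher and 26 with lower values in SCM, or 49.4% of the 89, beside 65.5% of all measured rows and 70.3% of protein-coding rows. The cumulative distribution of log2 ratios shows the narrower spread of the members around the same centre.

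**Figure D1:**
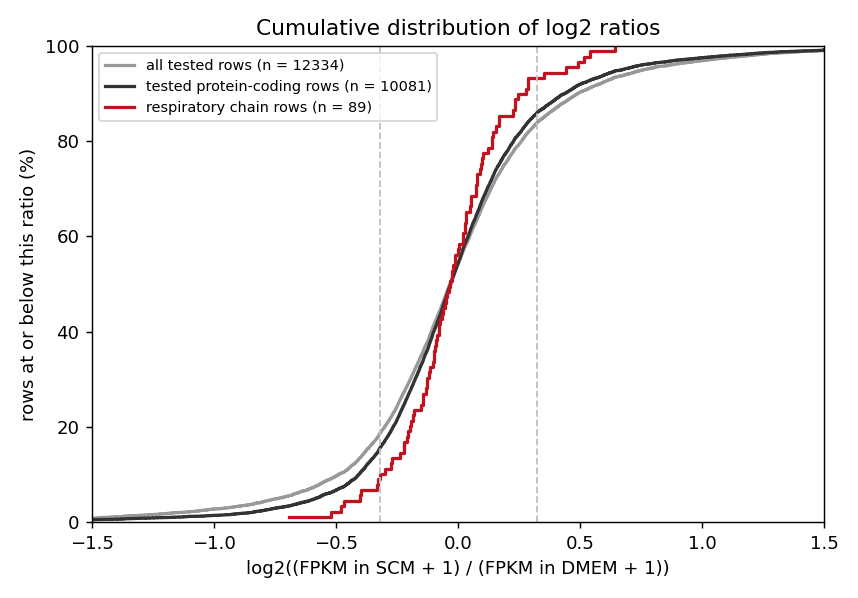
Cumulative share of rows (y axis, percent) at or below each log2((FPKM in SCM + 1) / (FPKM in DMEM + 1)) (x axis, cropped at both ends) for the 89 measured respiratory chain rows, the 10081 measured protein-coding rows and all 12334 measured rows. Dashed lines mark the 25% limit; the curve of the respiratory chain rows is steeper and all curves cross near 0.

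Levels differed far more between subunits than between media. Among measured members in DMEM they ran from 1.59 FPKM for Cox7b2 to 233 FPKM for Atp5b, the catalytic beta subunit of the ATP synthase, which is a range of 147-fold. In SCM, Atp5b was again the most abundant member at 217 FPKM. It was followed in both libraries by Atp5a1, the alpha subunit, with 126 and 138 FPKM, and by Cox7b and Uqcrb. As a description across genes, all taken from the same pair of libraries, the log2 levels of the 89 members had r = 0.99 between media, and those of all measured rows r = 0.95.

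These levels depend on the gene lengths in the table, which cover all annotated exons and not the usual messenger RNA. The table length was a median of 1.42 times that of the longest coding transcript of GENCODE M21, and 11.8 times for Atp5l, the g subunit of the ATP synthase. Atp5l had 7.27 FPKM in DMEM by the table length of 6443 bases and 86.1 on the same scale when divided by its transcript of 544 bases instead. Cox6c likewise had 28.3 FPKM by its table length and 137 by its transcript. Unequal levels of subunits that sit in 1 enzyme in equal number are therefore not unequal mRNA amounts as such. The plain FPKM ratio of media for 1 gene is untouched by the length. The log2 ratio with 1 FPKM added and the minimum of 1 FPKM do depend on the length, most for genes of low level.

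**Figure D2:**
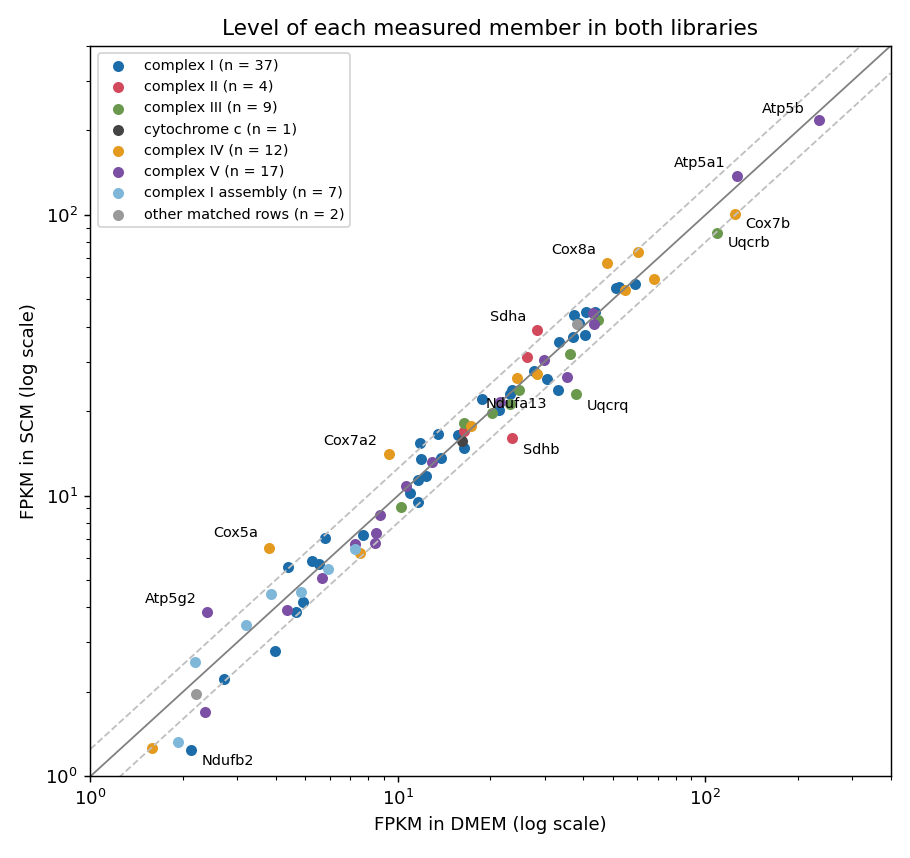
FPKM of each of the 89 measured members in DMEM (x axis, log scale) and in SCM (y axis, log scale), coloured by complex, with a solid line at equality and dashed lines at a plain difference of 25%. Points follow the diagonal from about 1.59 to 233 FPKM in DMEM, with Cox5a, Cox7a2, Cox8a, Sdha and Atp5g2 above it and Sdhb, Uqcrq, Ndufa13 and Ndufb2 below it.

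Complex I, the NADH dehydrogenase, had all 37 of its nuclear-encoded subunit rows measured, with 1 higher and 3 lower past the 25% limit and a median log2 ratio of -0.01. The summed level of its genes was 789 FPKM in DMEM and 797 in SCM. Its 7 nuclear-encoded core subunits, which catalyse electron transfer from NADH, all lay within the 25% limit. Ndufv1, which holds the flavin that accepts electrons from NADH, had 16.4 FPKM in DMEM and 14.8 in SCM. Its partner Ndufv2 had 52.4 and 55.2 FPKM. Ndufs1, with several iron-sulphur clusters, had 11.9 and 13.5 FPKM. The cluster-bearing Ndufs7 and Ndufs8 had 43.6 and 45.2 FPKM and 11.6 and 9.46 FPKM, and Ndufs3 5.56 and 5.68. Within the core, Ndufs8 was the lowest by ratio, 1.23-fold lower in SCM (95% counting interval 1.07 to 1.40), and Ndufs1 the highest, 1.13-fold higher (1.08 to 1.19). The Ndufs1 row overlaps exons of Eef1b2 and Ino80dos on the opposite strand, and the Ndufs3 row those of Kbtbd4.

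The complex I genes past the 25% limit were all accessory subunits, which surround the core and are needed to assemble or hold it. Ndufv3, an accessory subunit near the flavin site, had 11.8 FPKM (1093 reads) in DMEM and 15.3 (1793 reads) in SCM, 1.30-fold higher (1.21 to 1.40). Ndufa13, also known as GRIM-19, had 33.2 FPKM (1207 reads) and 23.7 (1087 reads), 1.40-fold lower (1.29 to 1.52). In the distal membrane arm, Ndufb7 had 3.98 and 2.79 FPKM, 1.43-fold lower (1.26 to 1.62). Ndufb2, of the same arm, had 2.12 and 1.24 FPKM, 1.72-fold lower (1.46 to 2.02). How the counting treated strand is not stated in the labels, and the Ndufb2 row overlaps exons of Braf on the opposite strand, so the reads of these genes may not be told apart. With 3 FPKM added in place of 1, Ndufb2, Ndufb7 and Ndufv3 lay inside the 25% limit, at log2 ratios of -0.27, -0.27 and 0.31.

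The 11 Ndufb genes went both ways, with 5 log2 ratios above 0 and 6 below and a median of 0.00. Besides the lower Ndufb2 and Ndufb7, Ndufb1 was 1.27-fold higher (1.03 to 1.57) in plain FPKM, at 4.38 and 5.56, and just inside the limit with 1 FPKM added, and its row overlaps exons of Cpsf2. Ndufb6 was 1.23-fold higher (1.05 to 1.44) and Ndufb5 1.22-fold higher (1.12 to 1.33), while Ndufb10 stood at 27.8 FPKM in both libraries. The Ndufb5 row overlaps exons of Mrpl47, and Ndufb6 shares part of its sequence with another gene, as given below. The 13 Ndufa genes of complex I, Ndufab1 among them, had a median of -0.03, and the highest of them was Ndufa9, at 18.7 and 22.1 FPKM. Ndufab1, the mitochondrial acyl carrier protein that also sits in complex I, had 4.90 and 4.16 FPKM. Genes grouped by the Ndufb symbol thus did not share a direction, and grouping by place in the enzyme was not tested.

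Of the 8 complex I assembly factors in the name pattern, 7 were measured, 0 were higher and 1 lower past the 25% limit, with a median of -0.08. Ndufaf6 was that gene, at 1.92 FPKM (69 reads) in DMEM and 1.32 (60 reads) in SCM, 1.45-fold lower (1.01 to 2.08), an interval that barely leaves out 1. Its log2 ratio of -0.33 was -0.30, inside the limit, when centred on the median of all or of protein-coding measured rows, and -0.19 with 3 FPKM added in place of 1. Ndufaf2 stayed under 1 FPKM, at 0.912 (79 reads) and 0.504 (55 reads), and was not counted. Its plain ratio was 1.81-fold lower (1.27 to 2.60) and its log2 ratio -0.35 with 1 FPKM added, which is past the 25% limit. The count of 1 lower thus rests on the minimum level. The most abundant factor was Ndufaf4, at 7.24 and 6.47 FPKM, well under most subunits. Of 10 other complex I assembly genes, 8 were measured, 0 were higher and 1 lower. That gene was Tmem126b, of the intermediate assembly complex, at 23.8 and 18.7 FPKM.

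**Figure D3:**
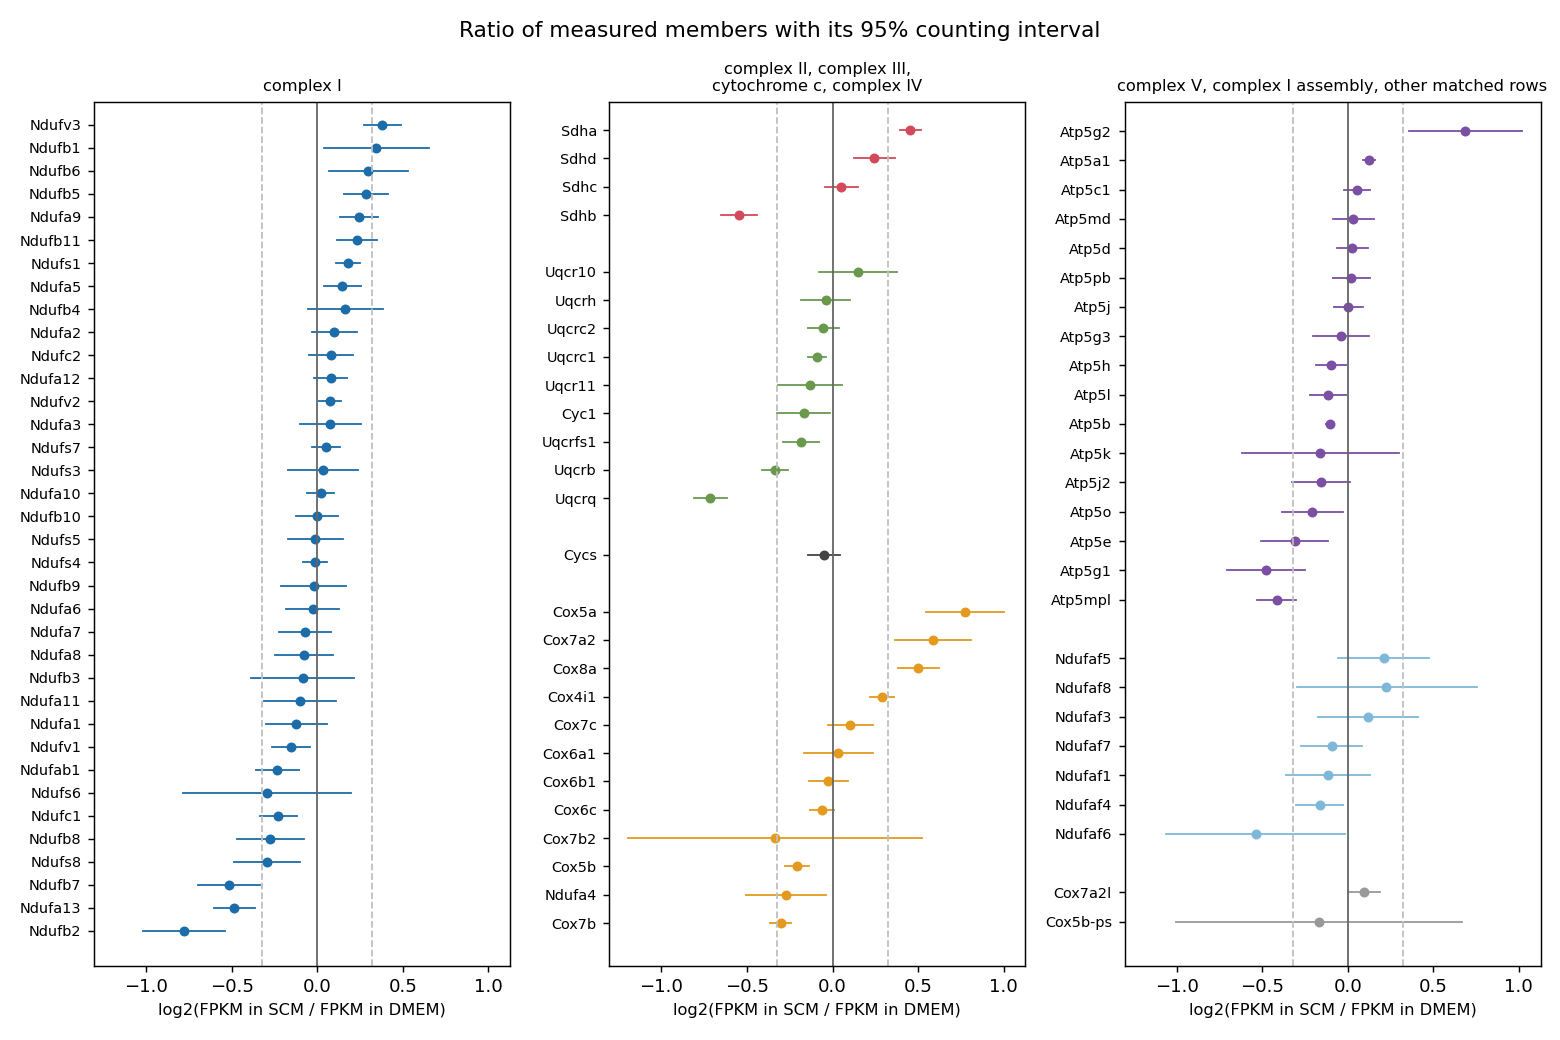
Log2 of the plain FPKM ratio of SCM to DMEM (x axis) for 88 of the 89 measured members (y axis), grouped by complex and sorted within it by the ratio with 1 FPKM added, with bars for the 95% exact counting interval. The solid line is equality and dashed lines are the 25% limit on this plain scale, which is slightly wider for genes of low level than the scale with 1 FPKM added; most points lie between the dashed lines, and the farthest are Cox5a on the right and Ndufb2 and Uqcrq on the left.

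Complex II, succinate dehydrogenase, is the member of the chain that also works in the tricarboxylic acid cycle, and all its subunits are nuclear. Its 4 genes were split. Sdha, the flavoprotein that oxidises succinate, had 28.4 FPKM (3403 reads) in DMEM and 38.9 (5882 reads) in SCM, 1.37-fold higher (1.31 to 1.43). Sdhb, the iron-sulphur subunit that passes the electrons on, had 23.5 FPKM (1531 reads) and 16.1 (1321 reads), 1.46-fold lower (1.36 to 1.57). The 2 counting intervals lie on opposite sides of 1. The level of Sdha over that of Sdhb was 1.21 in DMEM and 2.42 in SCM by the table lengths, and 0.875 and 1.75 by the lengths of the longest coding transcripts. Which of the 2 genes was higher in DMEM thus turned with the length used, while Sdha was higher in SCM by both. The membrane anchors were closer to equality, with Sdhd at 26.3 and 31.1 FPKM, 1.18-fold higher (1.09 to 1.29), and Sdhc at 16.5 and 17.1 FPKM. The plot of single genes shows the 4 complex II levels side by side. Of 4 complex II assembly factors, all were measured and 0 passed the 25% limit. Sdhaf3 had the lowest ratio, at 1.23 and 0.856 FPKM, and Sdhaf1 the highest, at 6.06 and 6.59.

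The 250 bases upstream of the RefSeq start are printed for Sdha, Sdhb and Sdhd, because genes of 1 enzyme differed in direction, and for Atp5g2, the higher of the ATP synthase genes. These windows were thus chosen after the ratios were seen, and Sdhc had no matched window. They come from the RefSeq promoter table on GRCm38.p6, 5′ to 3′ on the strand of the gene, and capitals mark matches to any of 5 motifs searched on both strands. NRF1, a known activator of respiratory chain genes, was searched as GCGC, then any base, then TGCGC. The others were an ETS-type site (CCGGAAGT, bound by GABP), YY1 (AAGATGGCG), ERR (TCAAGGTCA) and a GC box (GGGGCGGGG), and no match below overlaps another.
Sdha: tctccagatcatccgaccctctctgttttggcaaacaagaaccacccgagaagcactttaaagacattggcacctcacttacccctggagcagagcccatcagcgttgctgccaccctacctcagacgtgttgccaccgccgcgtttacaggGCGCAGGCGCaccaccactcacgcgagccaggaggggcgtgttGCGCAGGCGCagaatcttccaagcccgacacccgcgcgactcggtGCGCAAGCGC
Sdhb: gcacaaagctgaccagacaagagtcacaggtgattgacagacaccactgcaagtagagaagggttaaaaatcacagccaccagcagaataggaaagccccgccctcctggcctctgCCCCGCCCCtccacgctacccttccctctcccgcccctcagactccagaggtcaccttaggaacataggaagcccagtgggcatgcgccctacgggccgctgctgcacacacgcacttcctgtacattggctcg
Sdhd: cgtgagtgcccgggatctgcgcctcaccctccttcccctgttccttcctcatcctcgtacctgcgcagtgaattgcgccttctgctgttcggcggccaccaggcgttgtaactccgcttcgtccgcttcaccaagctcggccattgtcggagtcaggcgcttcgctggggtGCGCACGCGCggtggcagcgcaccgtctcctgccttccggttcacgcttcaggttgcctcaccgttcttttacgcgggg
Atp5g2: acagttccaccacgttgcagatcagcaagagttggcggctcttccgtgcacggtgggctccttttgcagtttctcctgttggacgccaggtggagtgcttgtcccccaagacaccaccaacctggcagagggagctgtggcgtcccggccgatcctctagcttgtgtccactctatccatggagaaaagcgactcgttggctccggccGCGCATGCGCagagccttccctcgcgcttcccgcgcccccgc
The Sdha window is chr13:74350241-74350490 on the minus strand and holds 3 NRF1 matches, beginning 98, 55 and 10 bases before the start site. The Sdhb window is chr4:140961021-140961270 on the plus strand and holds 1 GC box match, 134 bases before the start. The Sdhd window is chr9:50603850-50604099 on the minus strand, with 1 NRF1 match 79 bases before the start. The Atp5g2 window is chr15:102671048-102671297 on the minus strand, with 1 NRF1 match 42 bases before the start. A match describes letters in the window, and no binding was measured. The Sdhb window also holds gggcatgcgc, 1 base off the NRF1 pattern, and near matches were not searched for. The printed genes do not stand for the other members past the finer limit that had a window. Of those, Cox5a, Cox7a2, Cox8a and Ndufv3 were higher in SCM and held no NRF1 match. Ndufa13, Ndufb2 and Ndufb7 were lower in SCM and held none either.

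Promoter windows were matched for 79 of the 99 members, 74 of them measured. NRF1 letters stood in 14 of these 74 (18.9%), beside 4.23% of 27025 genes with a window and 10.4% of 8159 measured protein-coding genes. The 14 were Ndufa5, Ndufa8, Ndufa11, Ndufb4, Ndufs5, Ndufs6, Ndufaf4, Sdha, Sdhd, Cox6a1, Atp5c1, Atp5g2, Atp5h and Atp5k. Their median log2 ratio was 0.01, beside -0.03 for the 60 without the letters, so both groups lay near 0. ETS letters stood in 4.05% of the 74, beside 7.50% of the measured protein-coding genes, and GC box letters in 12.2%, beside 23.6%. YY1 and ERR letters were each in 1 of the 74, beside 1.56% and 0.294% of the measured protein-coding genes.

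Complex III, which passes electrons from coenzyme Q to cytochrome c, leaned toward lower levels in SCM. All 9 genes were measured, 8 log2 ratios lay below 0, 0 genes were higher and 2 lower past the 25% limit, and the median was -0.13. Of all measured rows, 45.8% had a log2 ratio above 0. The counting interval lay below 1 for 5 of the 9 genes and above 1 for 0, where 36.3% of all measured rows lay below and 29.2% above. Uqcrq, a small subunit bound to cytochrome b, had the lowest log2 ratio of all members, at 37.9 FPKM (2016 reads) in DMEM and 23.0 (1547 reads) in SCM, 1.64-fold lower (1.54 to 1.76). Uqcrb, another subunit near cytochrome b, had 109 FPKM (2782 reads) and 86.6 (2780 reads), 1.26-fold lower (1.20 to 1.33). Its log2 ratio of -0.33 lay inside the 25% limit, at -0.30, under the same centrings, which leaves 1 complex III gene past it.

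The catalytic genes of complex III lay closer to equality. Uqcrfs1, the Rieske iron-sulphur protein, had 36.2 FPKM in DMEM and 31.9 in SCM, a value 1.14-fold lower (1.06 to 1.22). Cyc1, cytochrome c1, had 10.2 and 9.10 FPKM, 1.12-fold lower with an interval that leaves out 1. The large core proteins Uqcrc1 and Uqcrc2 had 44.9 and 42.2 FPKM and 24.7 and 23.8 FPKM. The hinge protein Uqcrh and the small Uqcr11 were at 20.3 and 19.7 FPKM and at 23.2 and 21.1. Uqcr10 was the member above 0, at 16.4 and 18.1 FPKM, with a counting interval that held 1 (0.947 to 1.30). Of 6 complex III assembly genes, 5 were measured, 0 were higher and 1 lower, and 4 lay below 0. Bcs1l, which inserts the Rieske protein, was that gene, at 2.20 FPKM (140 reads) and 1.44 (116 reads).

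Cycs, the soluble carrier cytochrome c, had 16.2 FPKM (1604 reads) in DMEM and 15.6 (1953 reads) in SCM, and the interval of its ratio (0.904 to 1.03) held 1. It had no isoform among the members.

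Complex IV, cytochrome c oxidase, had log2 ratios spread to both sides, with quartiles of -0.20 and 0.34. Of its 19 rows 12 were measured, 3 were higher and 0 lower past the 25% limit, and the median was 0.00. Of all measured rows, 16.2% were higher and 18.5% lower past it. Cox5a, a matrix-side subunit that binds next to subunit 4, had 3.80 FPKM (232 reads) in DMEM and 6.49 (500 reads) in SCM, 1.71-fold higher (1.46 to 2.01), the highest log2 ratio of all members. Cox7a2, the ubiquitous form of subunit 7a, had 9.32 FPKM (256 reads) and 14.0 (485 reads), 1.50-fold higher (1.29 to 1.76). Cox8a, the smallest subunit, had 47.7 FPKM (859 reads) and 67.5 (1533 reads), 1.42-fold higher (1.30 to 1.54). Cox4i1, the main form of the regulatory subunit 4, was 1.22-fold higher (1.16 to 1.28), at 60.3 and 73.7 FPKM, just inside the limit. Its row overlaps exons of Emc8.

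Other complex IV genes were lower in SCM by their counting intervals while staying within the 25% limit. Cox7b had 125 and 101 FPKM, 1.23-fold lower (1.18 to 1.29), and Cox5b, a zinc-binding subunit, 68.3 and 59.0 FPKM, 1.16-fold lower (1.10 to 1.21). Ndufa4 had 7.52 and 6.22 FPKM, 1.21-fold lower (1.03 to 1.42). Cox6a1, Cox6b1, Cox6c and Cox7c lay near equality, and Cox6b1, for example, had 54.8 and 53.9 FPKM. The intervals of complex IV genes thus lay on both sides of 1, with 4 above, 3 below and 5 that held 1.

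The tissue isoforms of complex IV were at or near 0, so the enzyme's message in both media was that of the ubiquitous forms. Cox4i2, the form known from lung and from low oxygen, and Cox8b and Cox8c had 0 reads in both libraries. The heart and muscle form Cox6a2 had 2 reads in DMEM and 0 in SCM, and Cox7a1, of the same tissues, had 3 and 9 reads (0.193 and 0.459 FPKM). For Cox4i2, 0 reads allow up to 0.131 FPKM in DMEM and 0.104 in SCM (3 reads, counting error only). The testis forms Cox6b2 and Cox7b2 had 13 and 12 reads and 25 and 25 reads. Ndufa4l2, a gene known to be induced by low oxygen, had 4 reads in DMEM and 0 in SCM, and its row overlaps exons of Shmt2. Of the reads assigned to Cox7a1 and Cox7a2 together, Cox7a2 took 98.8% in DMEM (exact interval 96.7 to 99.8) and 98.2% in SCM.

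Complex IV depends on many assembly factors. Of 26 genes listed, 25 were measured, with 1 higher and 4 lower past the 25% limit, with a median of -0.01. Surf1, which acts in forming the catalytic subunit and whose loss causes Leigh syndrome, was the higher one, at 9.59 FPKM (489 reads) in DMEM and 14.6 (940 reads) in SCM. Cox20, a chaperone of subunit 2, had the lowest ratio, at 9.50 and 6.95 FPKM. Cox7a2l, the supercomplex factor whose symbol brings it into the pattern, was at 38.3 and 40.9 FPKM.

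Complex V, the ATP synthase, had 17 of 18 rows measured, 1 higher and 1 lower past the 25% limit, and a median of -0.10. Without its genes that share 20% or more of their 50-base stretches with other genes the median was -0.03. A second row named Atp5o had 0 reads in both libraries. The 5 genes of the catalytic F1 head lay within the 25% limit, with 441 FPKM in sum in DMEM and 437 in SCM. Atp5a1 was 1.09-fold higher in SCM (1.06 to 1.12) and Atp5b 1.07-fold lower (1.06 to 1.09), small differences that the depth of these rows resolves from counting error. Atp5c1, the gamma subunit of the rotating stalk, had 43.0 and 44.6 FPKM and Atp5d, the delta subunit, 29.8 and 30.4. Atp5e, the epsilon subunit, was the lowest of the head genes by ratio, at 8.40 and 6.77 FPKM.

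The membrane part and outer stalk held the genes of complex V past the limit. Atp5mpl, a small proteolipid of the membrane part, had 35.4 FPKM (1254 reads) in DMEM and 26.6 (1185 reads) in SCM, 1.33-fold lower (1.23 to 1.45). The stalk genes Atp5h, Atp5pb and Atp5o had 43.6 and 40.7, 10.7 and 10.8, and 8.51 and 7.37 FPKM. Atp5j, coupling factor 6, was at 21.5 FPKM in both libraries.

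Atp5g1, Atp5g2 and Atp5g3 encode the same mature c subunit, which forms the rotating ring, and differ in the targeting peptide that is removed on import. They did not share a direction. Atp5g2 had 2.40 FPKM (117 reads) in DMEM and 3.86 (237 reads) in SCM, 1.61-fold higher (1.28 to 2.02). Atp5g1 had 2.35 FPKM (336 reads) and 1.69 (304 reads), 1.39-fold lower (1.19 to 1.63) in plain FPKM and just inside the 25% limit on the scale with 1 FPKM added. Atp5g3, the most abundant, had 8.76 FPKM (556 reads) and 8.54 (683 reads). The summed level of the 3 genes was 13.5 FPKM in DMEM and 14.1 in SCM. Within this sum Atp5g2 made up 17.8% in DMEM and 27.4% in SCM, and Atp5g1 less in SCM than in DMEM. Of their reads, Atp5g2 took 11.6% (exact interval 9.68 to 13.7) and 19.4% (17.2 to 21.7), and Atp5g1 33.3% (30.4 to 36.3) and 24.8% (22.4 to 27.4). For neither gene do the intervals of the 2 media overlap. The shares of FPKM rest on table lengths that were 1.04, 2.22 and 3.02 times the longest coding transcript for Atp5g1, Atp5g2 and Atp5g3. Atp5g1 and Atp5g2 shared 11.6% and 14.8% of their 50-base stretches with other genes, and Atp5g3 0%. What this sharing did to the counts was not tested.

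**Figure D4:**
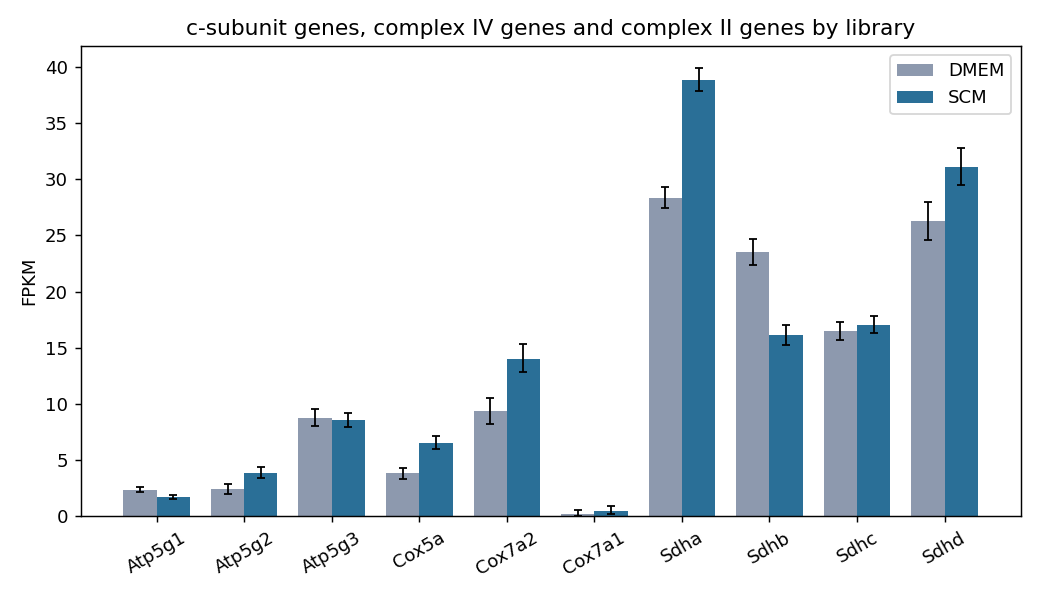
FPKM (y axis) in the DMEM and SCM libraries of the 3 c-subunit genes, 3 complex IV genes and the 4 complex II genes, with error bars for the exact 95% Poisson interval of the reads. Atp5g2, Cox5a, Cox7a2 and Sdha are higher in SCM and Sdhb lower, while Atp5g3 and Sdhc have overlapping bars.

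Many of these genes have processed copies elsewhere in the genome, and reads that fit several places may be lost or shared. Of the 89 measured members, 49 shared at least 1 stretch of 50 bases of their longest coding transcript with a transcript of another gene in GENCODE M21, and 18 shared 20% or more of such stretches. The share was 84.8% for Atp5l, 50.3% for the expressed Atp5o row, 43.4% for Uqcrb and 39.7% for Ndufs3. It was 34.1% for Ndufb6, 32.0% for Cox5a and 28.5% for both Ndufa13 and Cycs. How far such sharing changed the levels of these genes was not tested. The share was 0% for Uqcrq, Sdha, Sdhb, Cox7a2, Cox8a and Ndufv3. The 18 members had a median log2 ratio of -0.03 with 3 past the 25% limit, and the 70 under 20% a median of -0.04 with 11. Ndufb1 had no coding transcript to compare. Exons of 17 measured members overlap those of another measured row.

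Genes that serve the chain were described from lists of related mitochondrial functions, by the same limits. Beside the counts of every list stand the shares of all measured rows, 16.2% higher and 18.5% lower. The tricarboxylic acid cycle and pyruvate dehydrogenase had all 16 genes measured, 1 higher and 0 lower, with a median of 0.06. Pdha1, the catalytic subunit of pyruvate dehydrogenase, was the higher one, at 95.6 FPKM in DMEM and 140 in SCM, 1.46-fold higher (1.43 to 1.50). Cs, citrate synthase, lay just inside the limit, with levels of 30.9 and 38.8 FPKM, and Suclg2 had the lowest ratio, at 3.96 and 3.40 FPKM. Coenzyme Q synthesis and other electron entry genes had 15 of 18 measured, 5 higher and 1 lower, with a median of 0.01. Gpd2, the glycerol phosphate dehydrogenase that feeds coenzyme Q, had 6.37 and 9.79 FPKM, Coq10a 3.46 and 5.79 and Coq10b 2.39 and 1.61. Coq2 and Coq8a, of coenzyme Q synthesis, and Etfa, of the electron transfer flavoprotein, were also higher, Coq2 with 9.01 and 11.8 FPKM, Coq8a with 172 and 388 reads and Etfa with 13.0 and 16.5 FPKM.

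The mitochondrial ribosome, which makes the subunits encoded in mitochondrial DNA, had 77 of 78 genes measured, 5 higher and 10 lower. Of its measured genes 54 lay below 0, and the median was -0.09. Of all measured rows 16.2% were higher and 18.5% lower, 45.8% lay above 0, and the median was -0.03. Mrpl54 had the lowest ratio, at 12.7 and 6.35 FPKM, and Mrpl57 the highest, at 3.11 and 4.90. Regulators of mitochondrial gene expression had 14 of 18 measured, 0 higher and 3 lower, with a median of -0.03. The lower ones were Tfam, which packages and transcribes mitochondrial DNA, at 15.1 and 11.0 FPKM, Pprc1, a coactivator related to PGC-1, at 5.91 and 3.85, and Gabpb1, a GABP subunit, at 1.93 and 1.22. Nrf1 had 3.90 and 3.35 FPKM and Gabpa 26.9 and 29.7. Ppargc1a, the PGC-1alpha gene, was low in both at 1.35 and 1.56 FPKM, and Ppargc1b was not counted because it stayed under 1 FPKM in both. It had 34 reads in DMEM and 139 in SCM, a plain ratio 3.24-fold higher (2.22 to 4.87) and a log2 ratio of 0.59 with 1 FPKM added, which is past the 25% limit, so the count of 0 higher rests on the minimum level.

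Protein import and chaperones had 22 of 23 genes measured, 1 higher and 3 lower, with a median of -0.08. Hspa9, the mitochondrial HSP70 that pulls proteins into the matrix, had 117 and 76.2 FPKM, 1.53-fold lower (1.49 to 1.57), and Timm8b, a small chaperone between the membranes, 17.8 and 25.5. Cristae and cardiolipin genes had all 13 measured, 1 higher and 1 lower, with a median of 0.02. Crls1, cardiolipin synthase, had 14.9 and 10.2 FPKM, and Ptpmt1, a phosphatase of the same pathway, 3.34 and 4.71. The 4 complex V assembly genes all lay within the 25% limit, with Tmem70 lowest by ratio at 17.1 and 14.5 FPKM and Tmem242 highest at 12.7 and 14.8. Measured genes past 2-fold with 1 FPKM added numbered 0 in each of these 11 lists, beside 5.89% of all measured rows. None of the 13 subunits encoded in mitochondrial DNA could be set beside the nuclear ones, because 0 rows of the table lie on the mitochondrial chromosome.

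**Figure D5:**
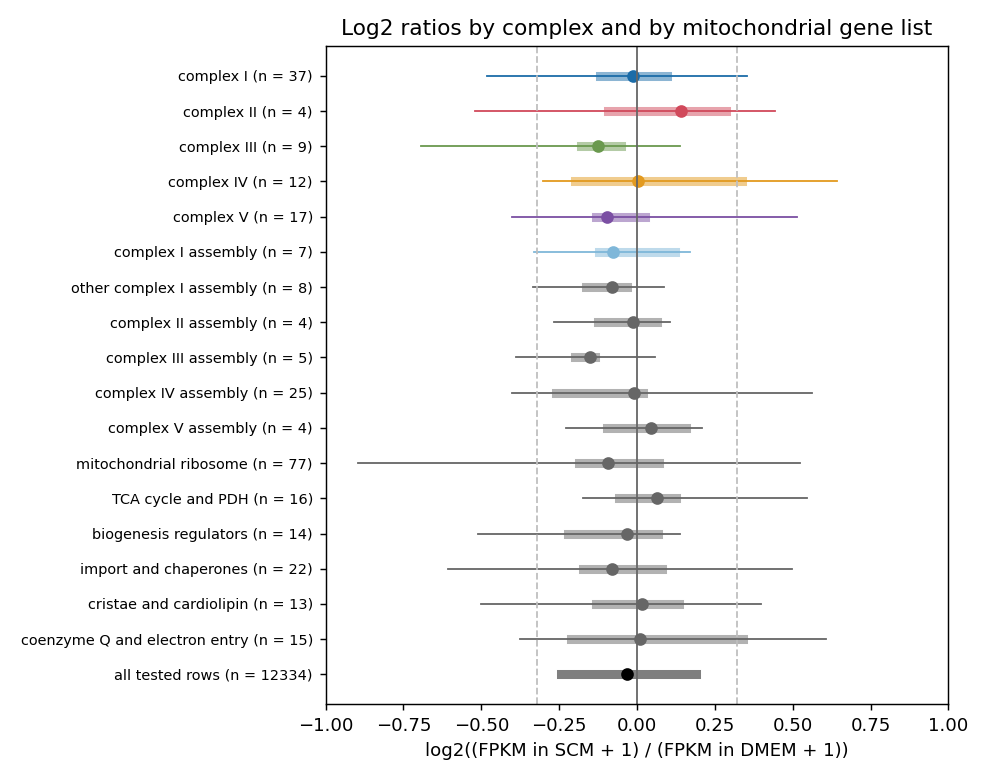
Log2((FPKM in SCM + 1) / (FPKM in DMEM + 1)) (x axis) by complex, for the complex I assembly factors, 11 lists of related mitochondrial genes and all measured rows (y axis, with the number measured), shown as the median (point), the interquartile range (thick bar) and, except for all rows, the full range (thin line). Dashed lines mark the 25% limit; every median lies between them, from -0.15 for complex III assembly to 0.14 for complex II.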

How the data were processed

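Expression was compared between 1 library from DMEM and 1 from SCM, grouped by sample title, with table columns matched by the name of the medium. The authors deposited FPKM values per gene with gene length, per the file headers. Named in the submitters' processing notes are STAR 2.7.9a, featureCounts 2.0.1, Trim Galore, cutadapt 3.1, Trimmomatic 0.39, GRCm38.p6 and mm10, with no roles, and parameters and strand setting were not given in the sources used here. Labels' protocols name a stranded total RNA kit. FPKM times length fell on whole multiples of 1 step per library, so reads were recovered (100% of rows within 0.01 of a whole read). No count model was fitted with 1 library per medium.

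The measure was log2 of the FPKM ratio with a pseudocount of 1 FPKM, which understates ratios of low genes, for rows where either or both libraries reached 1 FPKM. Limits were 2-fold and 25%. Intervals (95%, exact, Clopper-Pearson) were computed from the reads with scipy 1.17.1, and the floor of a count of 0 is 3 reads. The ratio and its interval were tried on simulated reads drawn with counting error alone, which is the error the interval assumes. Variation between cultures was outside that trial. Named were the core subunits, isoform families, the genes of highest level and the extreme ratios of each complex, every member past the 25% limit, and the extremes of each related list; 1 of these genes is counted but not reported by name here. Other genes named, among them Ndufa9, Ndufb5, Ndufb6, Ndufb10, Cox6b1, Cs, Nrf1, Gabpa, Ppargc1a, Ppargc1b and the other coenzyme Q genes, were chosen after their values were seen. The members, the lists and the alternatives were chosen with earlier results of these data known. Coa1 of the complex I assembly list matched no row. Of 98 members matched to RefSeq genes on GRCm38.p6, 4 had a table position within 1000 bases, so its build stayed unsettled and no table coordinate is printed. RefSeq promoter windows carry their own GRCm38.p6 coordinates, and their last 50 bases, past the start, were not used.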

Additional observations from a re-analysis of the deposited data

How the results depend on the processing

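With 1 library per medium, no library could be left out, and depth limits precision to the counting intervals given. No paired analysis was possible because each medium had 1 library. The number of members 2-fold apart was 0 in both directions under all 10 alternatives: a pseudocount of 0.1 or 3 FPKM, a minimum of 5 FPKM or none, centring on all or on protein-coding rows, structural subunits alone, an interval that excludes 1, and, added after seeing the data, leaving out members that share 20% or more of their 50-base stretches or that overlap another measured row. Only the pseudocount of 0.1, the lack of a minimum and the centrings could have raised this number. The other settings only shrink ratios or remove members, so their 0 was fixed in advance. At the 25% limit the number higher stayed between 5 and 7, beside 6. The number lower, 8, became 5 with a pseudocount of 3 FPKM and 5 with a minimum of 5 FPKM, since both settings act on genes of low level, and lay between 6 and 9 under the other settings. Of the 14 genes past the 25% limit, 14 remained so in the same direction with a pseudocount of 0.1, 10 with a pseudocount of 3 and 12 under either centring. The smaller pseudocount widens every ratio, so it could not have lost any of the 14. Those not kept were Ndufaf6, Ndufb2, Ndufb7 and Ndufv3 with a pseudocount of 3, and Ndufaf6 and Uqcrb under either centring. The median of all members ranged from -0.07 to 0.00, that of complex II from 0.13 to 0.18 and that of complex III from -0.13 to -0.09. That of complex V, -0.10, ranged from -0.10 to -0.03, the latter without members that share 20% or more of their 50-base stretches. Those of complexes I and IV, near 0, took both signs, from -0.02 to 0.02 and from -0.04 to 0.04. No gene past the 25% limit changed sign, and none could have under these settings. A pseudocount leaves the sign as it is, and either centring subtracted a median of only -0.03.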
